A study of Mus musculus with 4 samples.

Results

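The mitochondrial genome of the mouse carries 37 genes in the deposited tables, found as all rows whose gene name starts with mt-, out of 55382 genes in all. They comprise 13 protein genes, 22 tRNA genes (names starting with mt-T) and 2 ribosomal RNA genes (mt-Rnr1 and mt-Rnr2). Ribosome profiling, which sequences the RNA fragments that ribosomes shield from a nuclease, was done on hearts of mice killed 15 days after birth. The control group (WT, with library names starting FF) came from NAT10-FF mice and has 2 libraries, and the knockout group (KO) came from NAT10-CKO mice and also has 2. The labels give the tissue as heart, the cell type as cardiomyocytes and the same batch for all 4. The sources used here do not name the Cre driver, the cells it acts in, the exons removed, the sex, the strain or whether the libraries come from separate animals. The p-values rest on how far the libraries of a group differ, in the gene itself and across all tested genes. That spread may therefore be technical. NAT10 is an enzyme that adds acetyl groups to cytidines of rRNA, tRNA and other RNA.

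The small circular genome of the mitochondrion is copied into long transcripts from both strands, and the tRNAs that lie between the other genes mark where these are cut apart. Its protein genes code for core subunits of complexes I, III and IV of the respiratory chain and of the ATP synthase, which assemble with a larger number of subunits coded in the nucleus. The messages are read inside the organelle by mitochondrial ribosomes, which contain the 2 mitochondrial ribosomal RNAs and use the organelle's own tRNAs. Heart muscle is dense in mitochondria. Cycloheximide, used here at 100 µg/mL to hold ribosomes in place, acts on cytosolic ribosomes and not on mitochondrial ribosomes.

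The summed footprint level per library ran from 7042440 to 8734970 FPKM (fragments per kilobase of gene, scaled to the mapped fragments of the library, as deposited), and 16425 to 16900 genes lay above 0. The number of reads behind each library is unknown, because FPKM keeps no total. Nat10 itself read 77.3 and 73.9 FPKM in WT, against 40.01 and 52.1 in KO, without passing the test described next (adjusted p = 0.295, limma). Genes of at least 1 FPKM in at least 2 libraries were tested as log2(FPKM + 1) with limma over all 15031 such genes, with Benjamini-Hochberg adjustment of the p-values. For each gene, limma combines its own spread between libraries with that of genes of similar level. The p-values and intervals are therefore not a measure of the gene's own spread alone. The same fit was run for the translation efficiency (TE), the authors' ratio of footprint to RNA level, and for the RNA level that this ratio implies, over 12529 genes with a TE in all libraries. Of 10 cardiomyocyte markers, none was at 0 in any library, and their summed level was 280590 and 326038 FPKM in WT, against 188108 and 197521 in KO. The 8 fibroblast markers summed to 11596 and 8890 FPKM in WT, against 28122 and 38309 in KO. In bulk tissue, fewer cells of a type and less RNA per cell cannot be told apart.

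Not every mitochondrial gene was measured. In all 4 libraries 21 of the 37 genes lay above 0: 7 protein genes (mt-Nd1, mt-Nd2, mt-Co1, mt-Nd4, mt-Nd5, mt-Nd6 and mt-Cytb), 12 tRNA genes and both rRNA genes. A further 14 genes were listed at 0 in all 4 libraries and are treated as not measured, 5 of them protein genes (mt-Co2, mt-Atp8, mt-Atp6, mt-Co3 and mt-Nd4l) and 9 of them tRNA genes (mt-Tw, mt-Tn, mt-Ty, mt-Ts1, mt-Td, mt-Tk, mt-Tg, mt-Th and mt-Te). Of the other 2, mt-Nd3 read 36.8 and 0 FPKM in WT, against 7.39 and 12.8 in KO, and mt-Tr read 337 FPKM in WT replicate 1 and 0 elsewhere. With mt-Nd3, 22 genes were tested.

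The unmeasured genes were not spread evenly along the genome. All 37 genes were matched by name to the RefSeq annotation of GRCm38.p6, the build named in the submitters' processing notes, on chromosome MT (mt-Tf to TrnF, mt-Co1 to COX1 and so on). From mt-Ts1, which starts at base 6870, to mt-Nd4l, which ends at base 10173, 11 consecutive genes over 3304 bases included 9 of the 14 genes listed at 0, and the remaining 2 were mt-Nd3 and mt-Tr. The other 5 were tRNA genes standing alone between measured neighbours: mt-Tw from base 4950 to 5016, mt-Tn from 5089 to 5159, mt-Ty from 5260 to 5326, mt-Th from 11546 to 11612, and mt-Te from 14071 to 14139. By contrast, the first 10 genes, from mt-Tf to mt-Nd2, were measured without a gap. The plot of level by gene order shows this layout.

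**Figure D1:**
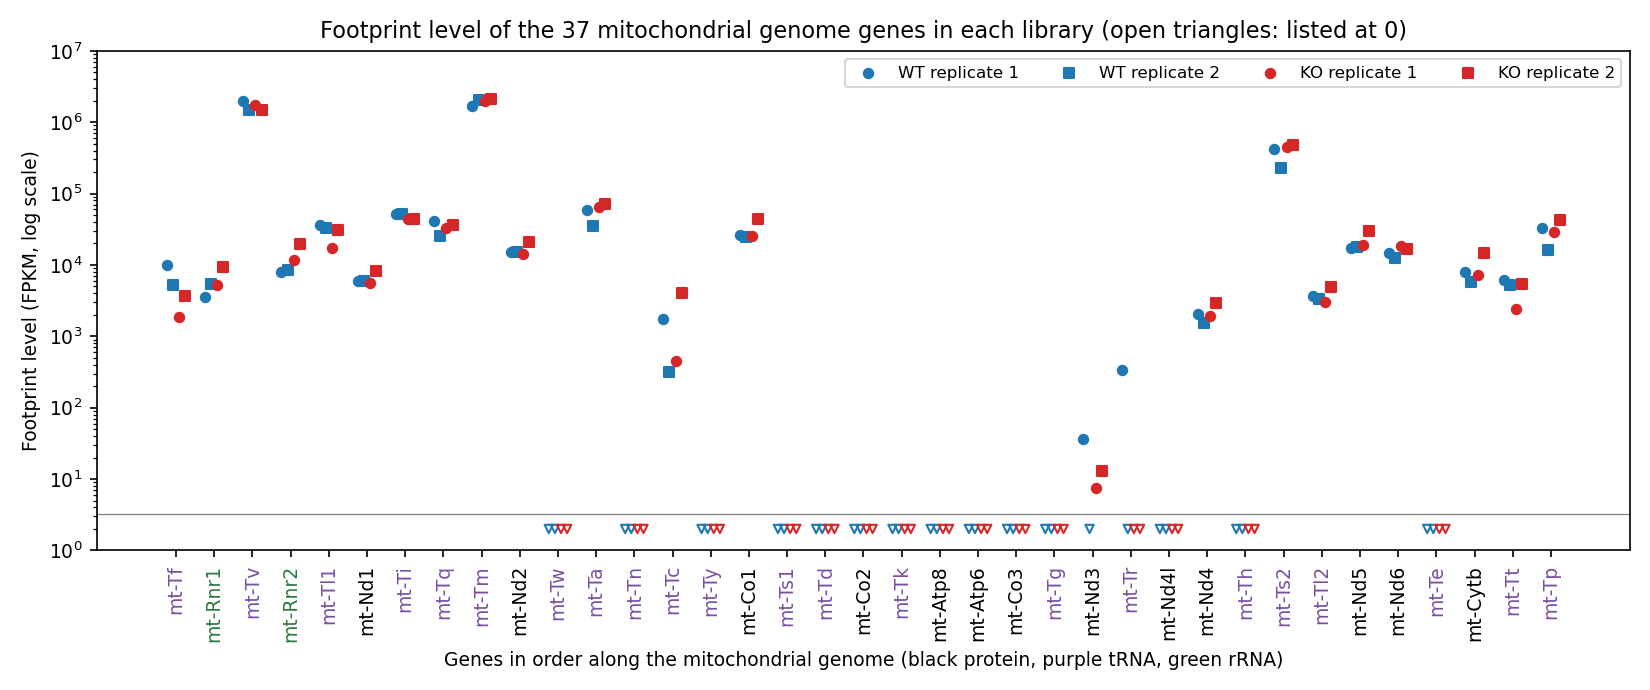
Footprint level (FPKM, log scale) of each of the 37 genes in each library, in their order along the mitochondrial genome, with WT in blue, KO in red, replicate 1 as circles and replicate 2 as squares, and open triangles for a value listed at 0. The stretch from mt-Ts1 to mt-Nd4l holds values above 0 only for mt-Nd3 and mt-Tr, while mt-Tv and mt-Tm stand above every other gene in all 4 libraries.

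A value of 0 here says nothing about whether a gene was translated. Among the genes listed at 0, mt-Co2 and mt-Co3 code for subunits of cytochrome oxidase, and mt-Co1, the catalytic subunit of the same oxidase, read at least 24438 FPKM in each library. Genes on this genome touch or share bases: 9 neighbouring pairs overlap, among them mt-Atp8 and mt-Atp6 by 43 bases, mt-Nd5 and mt-Nd6 by 14 and mt-Nd4l and mt-Nd4 by 7. The nuclear genome also holds copies of mitochondrial sequence, and RefSeq lists the pseudogene Gm10925 on chromosome 1 from base 24613971 to 24614651 with mt-Atp6 among its synonyms and the same length, 681 bases, as mt-Atp6. Gm10925 was at 0 in all 4 libraries too. The sources used here do not say how reads that match several places were handled, and its part in the values of 0 was not tested.

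Among the measured protein genes, mt-Co1 had the highest footprint level per length in every library. It read 25935 and 24438 FPKM in WT, against 25473 and 44200 in KO. The plot of levels shows KO replicate 2 alone above the other 3 libraries for this gene. It was followed in each library by mt-Nd5, a proton-pumping subunit of complex I and the longest of the protein genes at 1824 bases, with 16982 and 17863 FPKM in WT, against 19182 and 29407 in KO. Both KO values of mt-Nd5 lay above both WT values.

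The other measured complex I genes included 2 of intermediate level. In WT, mt-Nd2 read 15202 and 15008 FPKM, and in KO 14243 and 21089. The groups overlapped for mt-Nd2. The gene mt-Nd6, the only protein gene on the opposite strand, read 14458 and 12415 FPKM in WT, against 18683 and 16626 in KO, with both KO values above both WT values. In WT the values of mt-Nd2 and mt-Nd6 were apart, whereas in KO they overlapped, and mt-Nd6 stood above mt-Nd2 in KO replicate 1. The sources used here do not say whether counting used strand, so reads of mt-Nd6 and of transcripts from the other strand may not be separated.

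At the lower end, mt-Cytb, the cytochrome b subunit of complex III, read 8056 and 5693 FPKM in WT, against 7107 and 14862 in KO. The gene mt-Nd1 read 6032 and 5913 FPKM in WT, against 5543 and 8349 in KO, and its WT values lay within the spread of mt-Cytb. The lowest of the 7 was mt-Nd4, at 2024 and 1522 FPKM in WT, against 1899 and 2905 in KO. The ratio of highest to lowest, mt-Co1 over mt-Nd4, was 12.8 and 16.1 in WT, against 13.4 and 15.2 in KO. For mt-Cytb, mt-Nd1 and mt-Nd4 the groups overlapped, and KO replicate 2 was the highest library in each case. The order of the 7 genes was therefore nearly the same in every library, with changes of place only between mt-Nd2 and mt-Nd6 and between mt-Cytb and mt-Nd1.

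No protein gene passed the test for a footprint difference between KO and WT. All 8 tested protein genes had a positive log2 difference, from 0.19 for mt-Nd1 to 0.80 for mt-Nd3, with a median of 0.42. The value of mt-Nd3 comes from the 0 in WT replicate 2: it was 2.35 with a pseudocount of 0.1 FPKM, 0.037 with 5 and -1.82 without that library, and the mean FPKM of mt-Nd3 was higher in WT (18.4) than in KO (10.1). The median over all 15031 tested genes was 0.36, and 71.1% of them were positive, so the protein genes lay close to the shift of the tables as a whole. With median-ratio scaling between libraries, which brings the median of all genes to 0.03, the median of the 8 was 0.04 and both mt-Nd1 and mt-Nd2 turned negative (-0.19 and -0.18). Among all tested genes 0.379% passed at an adjusted p of 0.05 (0.253% higher and 0.126% lower in KO), and among the 22 mitochondrial genes 0 passed (limma, adjusted p of the 8 protein genes 0.473 to 0.823). At an unadjusted p under 0.05 there were 2 of the 22, mt-Tf and mt-Rnr2, beside 17.3% of all tested genes. Groups did not overlap, with KO higher, for 2 of the 8 protein genes (mt-Nd5 and mt-Nd6), beside 39.5% of all tested genes, and after median-ratio scaling for 0 of 8. The share of all tested genes under that scaling is not given here.

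The intervals of these differences were wide. For mt-Co1 the log2 difference was 0.41 (95% interval -0.50 to 1.33, n = 2 against 2), for mt-Nd5 0.45 (-0.35 to 1.25) and for mt-Nd6 0.40 (-0.27 to 1.06). A change of either sign up to about these bounds could thus not be told from the spread between libraries as the fit estimates it. For mt-Cytb the difference was 0.60 (-0.42 to 1.62) and for mt-Nd4 0.42 (-0.31 to 1.15). KO replicate 2 carried most of these positive values: without it the median of the 8 protein genes was 0.09, and without KO replicate 1 it was 0.74.

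**Figure D2:**
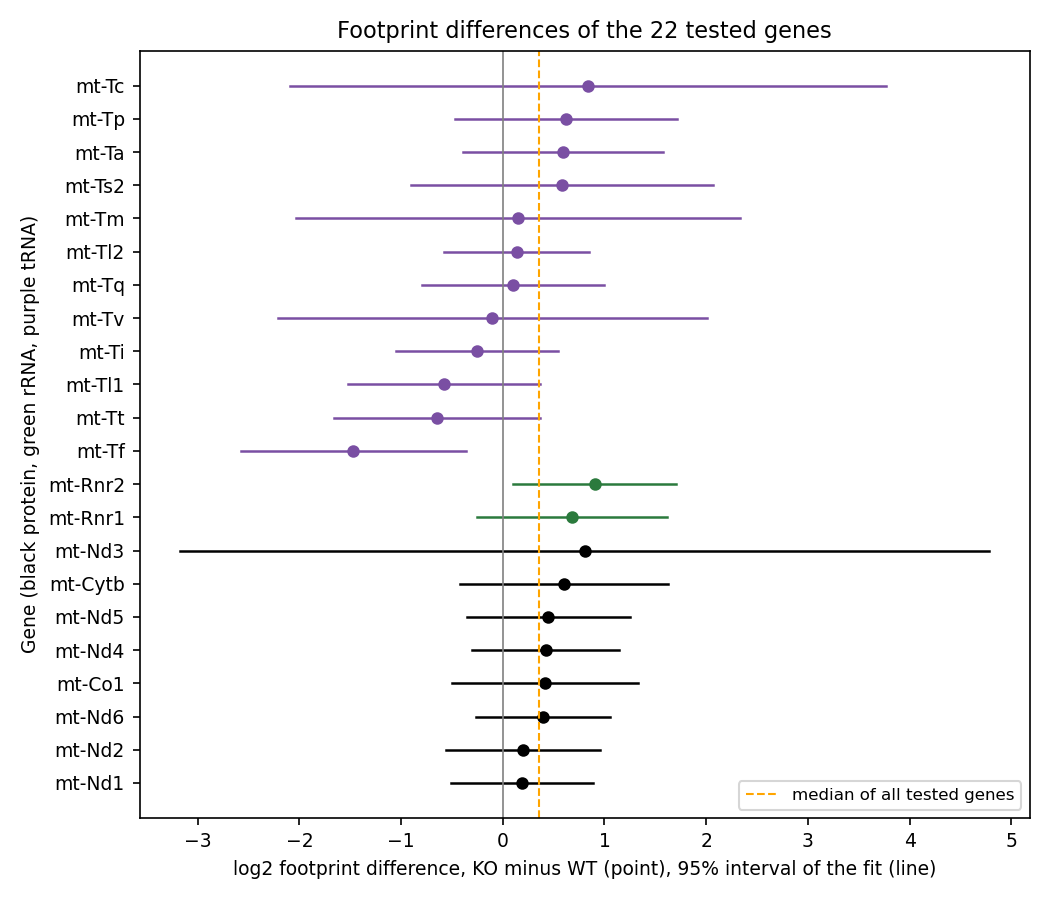
The log2 footprint difference, KO minus WT, of the 22 tested genes (points) with the 95% interval of the limma fit (lines), grouped as protein (black), rRNA (green) and tRNA genes (purple), and the median of all tested genes as a dashed line. The points of the protein genes lie near the dashed line at 0.36, and the intervals of mt-Tf (below 0) and mt-Rnr2 (above 0) leave out 0.

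On the FPKM scale, 3 of the tRNA genes stood among the 4 highest values of each library. A tRNA carries amino acids to the ribosome and is not itself translated, so its FPKM gives the amount of tRNA fragments in the libraries and no translation. Mitochondrial tRNA genes held 56.0% and 55.3% of the summed FPKM of all genes in WT, against 57.0% and 48.9% in KO. KO replicate 2 stood below the other 3, and the means of 55.7 ± 0.53% and 53.0 ± 5.7% (SD, n = 2) differed by less than the spread within KO (exact permutation test, two-sided, p = 1). The smallest p that 2 libraries against 2 can give is 0.333.

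Apart from the shares given in the closing section, the tRNA levels were not set against those of the protein genes. Among RefSeq snoRNA, miRNA, snRNA and pseudogene entries of 50 to 100 bases with a value above 0, the product of FPKM and length in kilobases was below 1 for 0 of 87, 0 of 76, 0 of 76 and 0 of 96 genes in WT replicates 1 and 2 and KO replicates 1 and 2. Among such entries of 200 to 2000 bases it was below 1 for 24.8% to 45.8%. The smallest products above 0 were thus larger for short genes than for longer ones, and the mitochondrial tRNA genes are 59 to 75 bases long. The tRNA levels are therefore compared with each other and between libraries, and their shares and ranks among all genes describe the deposited FPKM scale only.

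A few tRNAs dominated. The genes mt-Tv, mt-Tm and mt-Ts2 together held 94.3% to 95.5% of the summed tRNA level in each library. The tRNA for valine, mt-Tv, which lies between the 2 rRNA genes from base 1025 to 1093, read 2000010 and 1455950 FPKM in WT, against 1735820 and 1457200 in KO. The tRNA for methionine, mt-Tm, which both starts and extends mitochondrial proteins and lies just before mt-Nd2 from base 3845 to 3913, read 1659220 and 2032180 FPKM in WT, against 1985950 and 2095070 in KO. In WT replicate 1 mt-Tv was the highest of all genes and mt-Tm came after it, and in the other 3 libraries their order was the reverse. The groups overlapped for both.

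A serine tRNA, mt-Ts2, at 59 bases the shortest of the 22, ranked as gene 4 in every library. It read 416614 and 230609 FPKM in WT, against 449662 and 480502 in KO, with both KO values above both WT values. Its log2 difference was 0.58 (95% interval -0.90 to 2.07, adjusted p = 0.638). Neighbouring tRNA genes differed widely: mt-Tm exceeded mt-Tq, a glutamine tRNA 2 bases away, 40.5- and 80.8-fold in WT and 60.3- and 58.2-fold in KO. In the same way mt-Ts2 exceeded mt-Tl2, a leucine tRNA that overlaps it by 1 base, 114- and 68.6-fold in WT and 148- and 98.8-fold in KO.

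Of the other 9 tRNA genes measured in all libraries, 5 lay between 16010 and 72139 FPKM. The alanine tRNA mt-Ta read 58202 and 34820 FPKM in WT, against 63737 and 72139 in KO, and the groups did not overlap. The isoleucine tRNA mt-Ti read 52201 and 52485 FPKM in WT, against 44521 and 43410 in KO, with both KO values below both WT values. The glutamine tRNA mt-Tq, at 41014 and 25146 in WT, against 32960 and 35986 in KO, and the proline tRNA mt-Tp, at 32503 and 16010 in WT, against 29168 and 42428 in KO, overlapped between groups. For all 3 of mt-Ta, mt-Tq and mt-Tp, WT replicate 2 was the lowest library, as it was for mt-Ts2.

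The phenylalanine tRNA mt-Tf, the first gene of the annotation from base 1 to 68, had the largest footprint difference of the 22 tested genes on the log2 scale. It read 9963 and 5245 FPKM in WT, against 1850 and 3664 in KO. Both KO values lay below both WT values, and the level was 2.78-fold lower in KO (log2 difference -1.47, 95% interval -2.58 to -0.37). It did not pass over all genes (unadjusted p = 0.0175, adjusted p = 0.222, limma). The first leucine tRNA, mt-Tl1, at 35820 and 32680 FPKM in WT, against 16997 and 30746 in KO, was also below WT in both KO libraries (log2 difference -0.58, adjusted p = 0.46).

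The tRNA genes as a class had no common direction. Of the 12 tested, 7 had a positive and 5 a negative log2 difference, from -1.47 for mt-Tf to 0.84 for mt-Tc, a cysteine tRNA that read 1770 and 319 FPKM in WT, against 447 and 4029 in KO. Their median was 0.12, against 0.36 for all genes. It was -0.26 with median-ratio scaling and -0.25 without WT replicate 2, so its sign rested on the scale and on single libraries (it was also -0.089 without KO replicate 2). Groups did not overlap with KO higher for 2 of 12 (mt-Ta and mt-Ts2, beside 39.5% of all genes) and with KO lower for 3 of 12 (mt-Tf, mt-Tl1 and mt-Ti, beside 12.1%). After median-ratio scaling these counts were 0 and 6. The shares of all genes given here are from before that scaling, which also moves them, so these 2 counts have no share beside them. The remaining members were the second leucine tRNA mt-Tl2, at 3652 and 3363 FPKM in WT, against 3047 and 4864 in KO, and the threonine tRNA mt-Tt, at 6117 and 5266 in WT, against 2402 and 5442 in KO, and neither was apart between groups.

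The rRNA genes code for the RNA of the small (mt-Rnr1) and large (mt-Rnr2) mitochondrial ribosomal subunits. Their fragments come from the ribosome itself, and per the labels' protocols rRNA was depleted from the libraries, so their footprint level is not a level of translation either. The level of mt-Rnr1, from base 70 to 1024, was 3546 and 5436 FPKM in WT, against 5217 and 9488 in KO, and the groups overlapped. That of mt-Rnr2, from base 1094 to 2675, was 7880 and 8381 FPKM in WT, against 11772 and 19639 in KO, with both KO values higher. The log2 differences were 0.68 (95% interval -0.26 to 1.62, adjusted p = 0.394) and 0.90 (0.10 to 1.71, adjusted p = 0.258). For mt-Rnr1 the difference was 0.25 without KO replicate 2, 1.11 without KO replicate 1, 0.37 without WT replicate 1 and 0.31 with median-ratio scaling, and for mt-Rnr2 it was 0.53 without KO replicate 2 and 0.53 with median-ratio scaling.

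The RNA level that the TE implies was available in all 4 libraries for 8 of the 37 genes, namely 6 protein genes and both rRNA genes. In part of the libraries there were values for mt-Nd3, with an implied RNA level of 20.8 FPKM in WT replicate 1 and 24.9 and 29.4 in KO and a TE of 1.77 in WT replicate 1 and 0.297 and 0.434 in KO, and for mt-Tl1, with 3861 FPKM in WT replicate 1. The mt-Nd3 values ran opposite to those of the 8 genes described next. For mt-Co1 and the tRNA genes above 0 the TE was listed at 0 in all or all but 1 of the libraries beside footprints above 0, and it was taken as missing. The sources used here do not describe the RNA libraries, including whether rRNA was depleted from them. The 8 genes with a value in all libraries read lower in both KO libraries than in both WT libraries. Across all 12529 genes with a TE, 18.6% were apart in this direction and 44.2% in the other, and the median log2 difference of all genes was 0.22.

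The largest RNA difference was that of mt-Rnr2. This gene had implied levels of 4120 and 4218 FPKM in WT, against 1412 and 1710 in KO. It fell 2.68-fold, from 4169 ± 69.0 to 1561 ± 211 FPKM (SD, n = 2; log2 difference -1.42 with an SE of 0.30), and it was the only member to pass limma's test in any of the 3 measures (adjusted p = 0.0486; 5.73% of all genes passed for RNA, 4.2% higher and 1.53% lower in KO). At an unadjusted p under 0.05 both rRNA genes and none of the 6 protein genes were found, beside 28.3% of all genes. The adjusted p ran from 0.00550 to 0.468 over the alternatives: it was 0.468 without WT replicate 1, 0.350 without WT replicate 2 and 0.0501 without the floor on low values. With the replicate block mt-Rnr2 did not pass either (adjusted p = 0.11, limma). The level of mt-Rnr1 was 2648 and 2553 FPKM in WT, against 1432 and 1342 in KO, 1.88-fold lower (log2 difference -0.91 with an SE of 0.28, adjusted p = 0.0992). Over the alternatives its adjusted p ran from 0.0263 to 0.739. It passed without KO replicate 1 (0.0453), without KO replicate 2 (0.0263) and with each library scaled to the same summed level outside the mitochondrial genome (0.0295), but leaving out WT replicate 1 gave 0.739 and leaving out WT replicate 2 gave 0.567. In both genes the WT libraries differed by far less than the distance between the groups.

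None of the 6 protein genes differed as much in RNA as mt-Rnr2. Cytochrome b, mt-Cytb, had the highest implied RNA level in each library, at 46807 and 41396 FPKM in WT, against 30745 and 39761 in KO. It was followed by mt-Nd1, at 34633 and 33777 in WT, against 24563 and 28800 in KO, by mt-Nd6, at 29184 and 26161 in WT, against 20679 and 23969 in KO, and by mt-Nd2, at 27943 and 22634 in WT, against 15702 and 21473 in KO. In each of these genes KO replicate 1 was the lowest library. The gene mt-Nd4 read 21487 and 18270 FPKM in WT, against 12784 and 17659 in KO.

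The gene mt-Nd5 had the largest RNA difference of the protein genes and also the widest spread. It read 25272 and 20217 FPKM in WT, against 7728 and 18622 in KO (log2 difference -0.91 with an SE of 0.57, adjusted p = 0.324). Without KO replicate 2 the log2 difference was -1.55 (adjusted p = 0.0150), so its size rested on KO replicate 1. The log2 differences of the other 5 ran from -0.45 to -0.31, none of the 6 passed (adjusted p = 0.324 to 0.72), and the median of the 6 was -0.38. Without KO replicate 1 this median was -0.22 and without WT replicate 1 it was -0.29. With median-ratio scaling it was -0.60, and with the scaling to the level outside the mitochondrial genome it was -0.62. The cardiomyocyte markers moved in the same direction for RNA, with a median of -0.51 and 8 of 10 markers below WT in both KO libraries (18.6% of all genes). The part of the cell mix in the RNA values was not tested.

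The deposited TE of the protein genes was low beside that of all genes. In WT it ran from 0.0942 and 0.0833 for mt-Nd4 to 0.672 and 0.884 for mt-Nd5, while the median of all 12529 genes was 4.10 and 3.31. Cycloheximide does not act on mitochondrial ribosomes, and the RNA libraries are not described. How far TE compares translation in mitochondria with that in the cytosol was not tested. The gene mt-Nd4 stood at percentile 0.758 and 0.886 of all genes in WT and at 1.80 and 1.22 in KO. The values of mt-Nd1, 0.174 and 0.175, and of mt-Cytb, 0.172 and 0.138, were close together in WT. The order mt-Nd5, mt-Nd2, mt-Nd6 at the top and mt-Nd4 at the bottom was the same in all 4 libraries, and the order of TE was not that of the RNA level: mt-Cytb had the most RNA and the second lowest TE in WT.

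The 8 genes measured in all libraries had a higher TE in both KO libraries than in both WT libraries. Across all genes 24% were apart in this direction and 12% in the other, and the median log2 difference was 0.15. The groups stayed apart in all 8 under median-ratio scaling and under scaling to the level outside the mitochondrial genome. The shares of all genes apart under these scalings are not given here. TE is the footprint level divided by the RNA level, so this is not independent of the lower RNA values already given. No gene of the 12529 passed limma's test for TE (759 had an unadjusted p under 0.05, 6.06%), and of the 8 members both rRNA genes had an unadjusted p under 0.05.

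For the protein genes, mt-Nd5 had the largest difference, from 0.672 and 0.884 in WT to 2.48 and 1.58 in KO (log2 difference 1.36 with an SE of 0.59, adjusted p = 0.806). The gene mt-Cytb went from 0.172 and 0.138 to 0.231 and 0.374, and mt-Nd4 from 0.0942 and 0.0833 to 0.149 and 0.164. Those of mt-Nd6 were 0.495 and 0.475 in WT, against 0.903 and 0.694 in KO, those of mt-Nd2 were 0.544 and 0.663 in WT, against 0.907 and 0.982 in KO, and those of mt-Nd1 were 0.174 and 0.175 in WT, against 0.226 and 0.29 in KO. The median log2 difference of the 6 was 0.76, and it was 0.61 with median-ratio scaling. Adjusted p-values of the 6 ran from 0.806 to 0.931.

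For the rRNA genes the ratio has no meaning as translation and sets ribosome-sized fragments against RNA of the same gene. It was 1.91 and 1.99 in WT, against 8.34 and 11.5 in KO for mt-Rnr2 (log2 difference 2.33 with an SE of 0.46, adjusted p = 0.611). It was 1.34 and 2.13 in WT, against 3.64 and 7.07 in KO for mt-Rnr1 (log2 difference 1.59 with an SE of 0.57, adjusted p = 0.806). The ratio of mt-Rnr2 to mt-Rnr1 in implied RNA was 1.56 and 1.65 for WT, against 0.987 and 1.27 for KO.

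**Figure D3:**
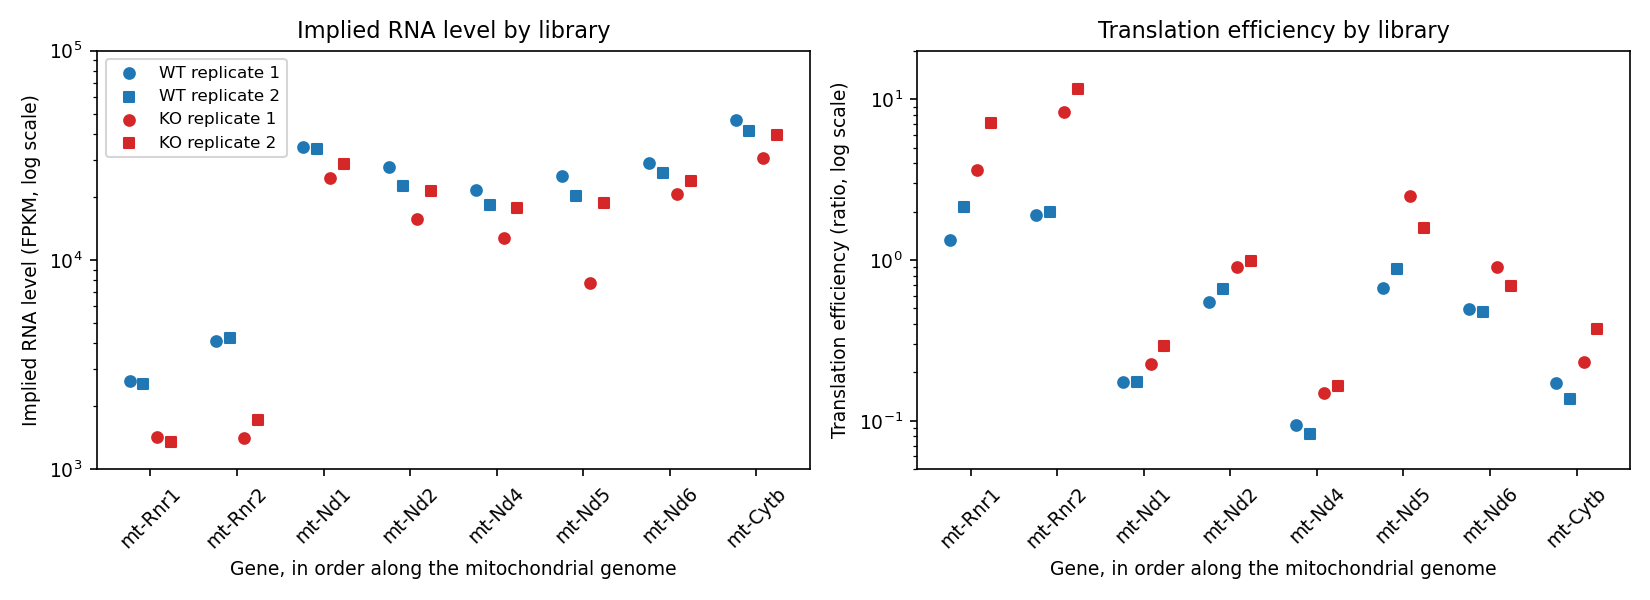
Implied RNA level (FPKM, log scale, left) and translation efficiency (ratio, log scale, right) of the 8 mitochondrial genes with a TE in all libraries, by library, with WT in blue, KO in red, replicate 1 as circles and replicate 2 as squares. Both red points lie below both blue points for every gene on the left and above them for every gene on the right, and the widest gap is that of mt-Rnr2.

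The nuclear genes that code for the other subunits of the same complexes read differently. From a list of 74 such genes of complexes I, III, IV and ATP synthase, 73 gene IDs were tested, 2 of them carrying the name Atp5o, and none passed for footprints. In 57 of the 73 the groups did not overlap, with KO lower (12.1% of all genes), and in 2 they did so with KO higher (39.5% of all genes). Their median log2 footprint difference was -0.40, against 0.42 for the mitochondrial protein genes and 0.36 for all genes. For the implied RNA level the medians were 0.00078 for the nuclear-coded and -0.38 for the mitochondrial genes, and for TE they were -0.43 and 0.76.

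Per library, the median footprint level of the 6 mitochondrial protein genes with a TE was 11257 and 9164 FPKM in WT, against 10675 and 15744 in KO, and that of the 73 nuclear-coded genes was 1579 and 1629 in WT, against 1192 and 1227 in KO. The ratio of these medians was 7.13 and 5.62 in WT, against 8.95 and 12.8 in KO, so it was higher in both KO libraries. The same ratio for the implied RNA level was 57.6 and 49.4 in WT, against 34.9 and 59.4 in KO, and it overlapped between groups. For TE it was 0.0939 and 0.0882 in WT, against 0.247 and 0.169 in KO. A ratio between genes of one library does not depend on the scaling of that library. The difference between the sets was not tested, since an exact permutation test over 2 libraries against 2 cannot pass.

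Complex I, the entry point of electrons from NADH, shows the contrast within 1 complex. Its nuclear-coded subunits had 33 of 36 members below WT in both KO libraries for footprints (12.1% of all genes) and a median log2 difference of -0.48. Ndufs1, its largest iron-sulfur subunit, read 2279 and 2845 FPKM in WT, against 1300 and 844 in KO (log2 difference -1.28 with an SE of 0.29, adjusted p = 0.158). The median footprint level of the 5 mitochondrial complex I genes with a TE was 14458 and 12415 FPKM in WT, against 14243 and 16626 in KO, and overlapped between groups. That of the nuclear-coded subunits was 1309 and 1465 in WT, against 1062 and 922 in KO. The mitochondrial median exceeded the nuclear-coded one 11.04- and 8.47-fold in WT and 13.4- and 18.04-fold in KO. Uqcrfs1, the Rieske iron-sulfur protein of complex III, read 4818 and 5446 FPKM in WT, against 2484 and 2628 in KO (adjusted p = 0.155). Cox7a1, a muscle subunit of complex IV, read 2343 and 2653 in WT, against 1128 and 1125 in KO (adjusted p = 0.124), and Atp5a1, the alpha subunit of ATP synthase, 18577 and 20651 in WT, against 10210 and 11555 in KO (adjusted p = 0.226). Some subunits went the other way. Cox7c, of complex IV, read 10.9 and 8.80 FPKM in WT, against 23.4 and 19.7 in KO (adjusted p = 0.285, limma). These levels were low beside its implied RNA level, with a TE of 0.0122 and 0.00962 in WT, against 0.0221 and 0.0251 in KO. The median TE of the 73 nuclear-coded genes was 3.56 and 3.68 in WT, against 2.30 and 3.16 in KO. Ndufb4, of complex I, had a log2 footprint difference of 1.04.

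The cardiomyocyte markers were also lower in footprints, with a median log2 difference of -0.59 and 9 of 10 markers below WT in both KO libraries (12.1% of all genes). For footprints the sign of this median was that of the nuclear-coded subunits and not that of the mitochondrial protein genes. For RNA the marker median was -0.51, against 0.00078 for the nuclear-coded subunits and -0.38 for the mitochondrial protein genes. For TE the medians were -0.080, -0.43 and 0.76 in the same order. The part of the cell mix in these differences was not tested.

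**Figure D4:**
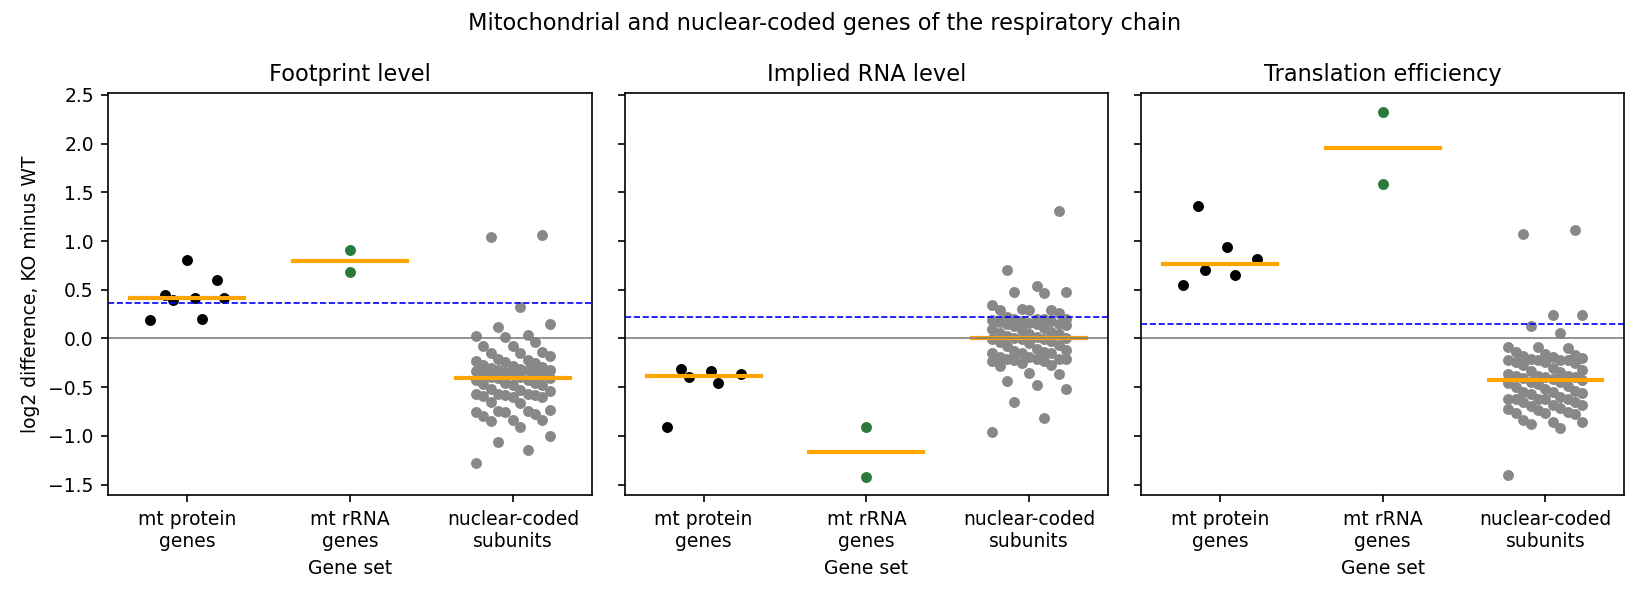
The log2 difference, KO minus WT, in footprint level, implied RNA level and translation efficiency of the mitochondrial protein genes (black), mitochondrial rRNA genes (green) and nuclear-coded subunits of the same complexes (grey), with 1 point per gene, the set's median as an orange bar and the median of all tested genes as a dashed line. Mitochondrial protein genes lie above most nuclear-coded subunits for footprints and TE (medians 0.42 against -0.40 and 0.76 against -0.43) and below the median of all genes for RNA.

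Nuclear genes that express the mitochondrial genome were described by lists in the same way, and none of their members passed for footprints, RNA or TE. Translation factors of the organelle stood apart below WT in footprints for 9 of 18 members (12.1% of all genes) and above for 0 (39.5% of all genes), with a median log2 difference of -0.27. Among them, Mtif3, an initiation factor, read 40.3 and 28.6 FPKM in WT, against 10.4 and 11.7 in KO (log2 difference -1.54 with an SE of 0.41, adjusted p = 0.188). Tufm, the elongation factor that brings tRNAs to the mitochondrial ribosome, read 40.4 and 29.99 in WT, against 9.63 and 26.8 in KO (adjusted p = 0.370). Its TE lay below the median of all genes in each library, at 0.337 and 0.281 in WT, against 0.0893 and 0.265 in KO.

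The enzymes that charge mitochondrial tRNAs had a median of 0.00032, with 5 of 22 apart below and 2 above, beside 12.1% and 39.5% of all genes. Aars2, which charges mt-Ta, read 41.9 and 45.03 FPKM in WT, against 26.4 and 32.4 in KO (adjusted p = 0.420). Ears2, another of these enzymes, read 19.7 and 25.7 FPKM in WT, against 35.6 and 36.6 in KO (adjusted p = 0.385, limma). Genes of tRNA processing and modification had a median of 0.37, with 8 of 25 apart above and 4 below, beside 39.5% and 12.1% of all genes. Nsun3, which methylates the anticodon of mt-Tm, read 10.1 and 10.5 FPKM in WT, against 16.9 and 24.5 in KO (adjusted p = 0.340), and Qtrt1, a subunit of the enzyme that places queuine in tRNAs, read 22.04 and 16.9 in WT, against 39.8 and 45.3 in KO (adjusted p = 0.236). In the other direction, Osgepl1 read 110 and 102 FPKM in WT, against 40.7 and 77.8 in KO (adjusted p = 0.294, limma). Genes of mitochondrial transcription and RNA stability had a median of 0.05, with 4 of 29 apart above and 7 below, beside the same shares of all genes. Polg, the mitochondrial DNA polymerase, read 37.1 and 27.5 in WT, against 65.7 and 55.04 in KO (adjusted p = 0.266), and Tfb1m, which methylates mt-Rnr1, read 45.7 and 45.3 in WT, against 35.5 and 24.6 in KO (adjusted p = 0.408).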

How the data were processed

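Ribosome footprints of 4 mouse heart libraries (WT and KO, 2 each) were used in 2 deposited tables. The first holds footprint levels in FPKM, made by the authors, and the second the authors' TE, a ratio per gene and library. The submitters' processing notes name the genome GRCm38 and, in no stated order and without settings, Cufflinks 2.2.1, HTSeq 0.13.5, STAR 2.7.4a, Bowtie 1.3.1, FastQC 0.11.9 and cutadapt 3.7. Dividing FPKM by TE gave numbers of at most 6 significant digits in 59296 of 59296 cases (relative tolerance 1e-10), and the quotient was used as the implied RNA level. A TE of 0 beside an FPKM above 0 (1516 to 1987 genes per library) was taken as missing.

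Levels were compared as log2(FPKM + 1), log2(TE) and log2 RNA with limma 3.58.1 (lmFit, eBayes with trend, two-sided) in R 4.3.3, fitted over all tested genes. The fit was also run on simulated footprint data, with differences larger than the footprint difference of any member. That run does not speak to differences of the members' size. Differences are KO minus WT. Every member was accounted for. From each nuclear list, members that passed were to be named, or otherwise up to 3 with the largest difference among those of at least 10 FPKM in 1 group and groups apart; some of these are given. Members and lists were chosen with earlier results of these data known. Alternatives covered pseudocount, floor, scaling, the replicate block and leaving out each library. No sequence is shown.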

Additional observations from a re-analysis of the deposited data

How the results depend on the processing

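The 22 footprint differences of members stayed short of the threshold under every alternative run, and the signs of the RNA and TE differences of the 8 members with a TE did not change under any. Signs of some footprint differences did change. With median-ratio scaling the log2 differences were -0.19 for mt-Nd1, -0.27 for mt-Tq, -0.22 for mt-Tm, -0.18 for mt-Nd2 and -0.24 for mt-Tl2, and with scaling to the level outside the mitochondrial genome they were -0.037, -0.12, -0.073, -0.026 and -0.089 in the same order. When each library was left out in turn, the ranges were -0.11 to 0.48 for mt-Nd1, -0.085 to 0.48 for mt-Nd2, -1.82 to 3.43 for mt-Nd3, -0.75 to 2.42 for mt-Tc, -0.20 to 0.47 for mt-Tl2, -0.25 to 0.45 for mt-Tq and -0.33 to 0.13 for mt-Tv. The median of the tRNA genes ran from -0.25 to 0.18 in these fits and was -0.26 with median-ratio scaling. The median of the protein genes was 0.61 for TE with median-ratio scaling and -0.62 for RNA with scaling to the level outside the mitochondrial genome. The difference in the share held by the protein genes, 0.22 percentage points of all genes, was 0.53 points of the mitochondrial genome and 4.02 points of it when weighted by length. Both shares of the mitochondrial genome overlapped between groups. The unweighted share was 2.01% and 2.08% in WT, against 2.06% and 3.09% in KO. Weighted by length it was 26.6% and 27.2% in WT, against 26.4% and 35.4% in KO. The share of all genes did not overlap, at 1.152% and 1.176% in WT, against 1.202% and 1.574% in KO. With mitochondrial tRNA and rRNA genes left out of the total, it was 2.629% and 2.643% in WT, against 2.809% and 3.102% in KO. That share did not overlap either. Each gave p = 0.333 (exact permutation test, two-sided), the smallest p that 2 libraries against 2 can give. The difference in the share of all genes was 0.038 points without KO replicate 2 and 0.41 without KO replicate 1.

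The number of members passing for RNA was 1. It was 0 without the floor, 2 with scaling to the level outside the mitochondrial genome, and 0 to 3 when a library was left out. Over all genes, 57 passed for footprints, 34 with a pseudocount of 0.1, 8 without the floor and 0 to 0 when a library was left out. For RNA 718 passed, and 704 to 3742 when a library was left out. Of these 718, 526 were higher and 192 lower in KO, and with median-ratio scaling 324 were higher and 308 lower. For TE 0 passed, and 0 to 33 when a library was left out. The replicate block gave 143 calls for footprints, 1429 for RNA and 178 for TE. Under it 0 members passed for RNA (mt-Rnr2 adjusted p = 0.11) and 1 for TE (mt-Rnr2 adjusted p = 0.0465, limma). In footprints, same-numbered libraries did not deviate together (r = -0.056 across genes). This was not computed for RNA or TE, and 2 libraries per group are too few to settle whether the numbers pair the libraries. The number of reads behind each value is unknown, also for mt-Nd3, mt-Tr and mt-Tc, whose values differed widely between libraries.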
